A study of Mus musculus with 20 samples.

Results

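A set of 9 genes that carry the output of the circadian clock were followed across the arrays: Per1, Per2, Per3, Tef, Dbp, Hlf, Nr1d1, Nr1d2 and Klf9. The list was drawn up after an earlier reading of these arrays had shown several of these genes low after SD-101 against saline. Comparisons that use the Saline-CTRL or SD-101 arrays therefore describe the 9 genes and do not test them. A probe set is the group of array probes that reads 1 transcript, and it was used where the platform annotation listed it with exactly 1 of these symbols. Where a gene had several, the probe set of highest mean across the 20 arrays stood for it. This gave values for 8 of the 9 genes, among 17097 genes in all, and Nr1d1 was not analysed here.

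The RNA came from CD44+CD8+ effector T cells, T cells that carry the killer-cell coreceptor CD8 and the activation marker CD44. They were purified from mouse lungs bearing tumours of 4T1, a mouse mammary carcinoma line. Transcripts of lung epithelium also read high. The alveolar marker Sftpc averaged 13.14 and the airway secretory marker Scgb1a1 11.63 over all arrays, where the highest value was 13.44. Which cells gave the members' values was not tested. All groups shared the tumour and intranasal treatment. The 4 groups were Saline-CTRL (5 arrays, saline only), SD-101 (6 arrays, a ligand of the DNA sensor TLR9), SD-101+anti-PD-1 (5 arrays, SD-101 with an antibody against the inhibitory receptor PD-1) and SD-101+anti-PD-1+a-CD4 (4 arrays, the same with the agent labelled a-CD4). The last 2 are called the PD-1 arm and the a-CD4 arm. The labels give no strain, age, dose or schedule, no time of day or lighting, and no statement of what a-CD4 did to the mice. Separate mice are not stated for the arrays of a group either, so p-values measure only the spread between these samples, which may be technical. Arrays numbered 1 and 2 stood apart from the rest of their group in both Saline-CTRL and SD-101. Their ciliated airway marker means were 4.60 to 5.20 against 2.99 to 3.96 in the other arrays of these groups. Their immediate early gene means were 10.30 and 10.05 in saline, against 10.95 to 11.13, and 9.53 and 9.51 in SD-101, against 10.54 to 10.77. Their alveolar epithelial marker means were 12.00 and 12.03 in saline, against 10.42 to 11.11, and 11.28 and 11.34 in SD-101, against 10.30 to 10.95. The labels do not say what these arrays share, and counts of members called without these 4 arrays are given with the other settings.

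The mammalian clock is a feedback loop. CLOCK and its partner BMAL1 (gene Arntl) bind E-box sequences and drive transcription of the Period and Cryptochrome genes, whose proteins then block CLOCK and BMAL1. The same drive reaches Dbp, Tef and Hlf, which encode PAR bZIP factors that activate genes through D-box sequences, and Nr1d1 and Nr1d2, which encode the REV-ERB repressors that hold Arntl down. T cells carry such a clock, and glucocorticoid hormone, whose blood level follows the time of day, also induces Per1 and Klf9. Because these transcripts cycle over the day, the hour at which each lung was taken bears on their level, and that hour is not given in the sources used here, so its part in the differences was not tested.

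Promoters were read from RefSeq (build GRCm38.p6), 250 bases upstream of each listed start. They are shown because 5 of the 8 members in the table, in 6 of 10 promoters, held a letter match to an element through which clock factors or cAMP signalling act. These 8 include Nr1d1 and lack Per2, which had no promoter listed and was not searched. The share of all promoters with a match to any of the elements was not counted, so nothing is read from the 5 of 8. The 4 genes printed are those with a complete match among the measured members. Capitals mark the matches, and each line runs from the base farthest upstream to the base next to the start.
Per1, chr11:69098699-69098948, plus strand: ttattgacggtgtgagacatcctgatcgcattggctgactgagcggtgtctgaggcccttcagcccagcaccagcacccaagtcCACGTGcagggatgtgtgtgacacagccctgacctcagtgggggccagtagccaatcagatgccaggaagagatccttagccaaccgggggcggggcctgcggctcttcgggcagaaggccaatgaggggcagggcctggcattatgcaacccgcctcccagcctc
Per3, chr4:151044666-151044915, minus strand: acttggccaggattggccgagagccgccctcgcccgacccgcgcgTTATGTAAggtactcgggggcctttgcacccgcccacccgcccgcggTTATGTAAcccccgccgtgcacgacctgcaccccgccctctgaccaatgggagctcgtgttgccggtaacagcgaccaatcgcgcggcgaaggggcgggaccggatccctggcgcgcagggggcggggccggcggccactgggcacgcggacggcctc
Tef, chr15:81802423-81802672, plus strand: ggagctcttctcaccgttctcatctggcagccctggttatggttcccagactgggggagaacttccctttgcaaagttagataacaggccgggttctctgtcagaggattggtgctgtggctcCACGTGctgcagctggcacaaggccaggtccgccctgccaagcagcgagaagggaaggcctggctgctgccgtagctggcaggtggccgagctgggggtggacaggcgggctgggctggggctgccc
Tef, second start, chr15:81811164-81811413, plus strand: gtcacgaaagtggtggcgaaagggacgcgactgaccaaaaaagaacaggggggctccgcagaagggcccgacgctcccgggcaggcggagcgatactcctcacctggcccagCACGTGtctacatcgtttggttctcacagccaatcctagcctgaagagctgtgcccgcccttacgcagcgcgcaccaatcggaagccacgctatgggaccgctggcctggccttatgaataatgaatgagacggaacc
Hlf, chr11:90390918-90391167, minus strand: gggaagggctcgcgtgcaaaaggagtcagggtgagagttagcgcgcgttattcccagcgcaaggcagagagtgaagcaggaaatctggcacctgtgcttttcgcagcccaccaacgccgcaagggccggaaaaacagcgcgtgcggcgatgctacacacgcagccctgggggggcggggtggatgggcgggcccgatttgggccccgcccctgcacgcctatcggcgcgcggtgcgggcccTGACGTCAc

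Per1 held the E-box CACGTG at bases 161 to 166 upstream of its start. The first Tef start held it at 122 to 127, and the second at 133 to 138. Per3 held the D-box letters TTATGTAA at 198 to 205 and again at 151 to 158. Hlf held the cAMP response element TGACGTCA at 2 to 9. Among 32851 mouse promoters of the same length, searched on both strands, CACGTG was found in 6.02%, TTATGTAA or TTACGTAA in 0.931%, and TGACGTCA in 1.55%. The E-box variant CACGTT, found in 3.85%, matched in Nr1d1 among the members, and the REV-ERB and ROR element (in 0.32%) matched in 0 of 10. Dbp, Nr1d2, Klf9 and a second start of Per1 held none of these letters in this window. A match is a description of letters, not of binding.

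The Period genes encode the repressors of the loop. Each array gives a log2 value, so a difference of 1 is a doubling, and values of different genes are not comparable with each other. Per2 read 6.67, 5.51, 5.90, 5.68 and 5.90 in the 5 Saline-CTRL arrays. In SD-101 it ran from 4.68 to 5.36 with a median of 5.04, below every saline array. With anti-PD-1 it read 5.81, 5.42, 5.49, 5.80 and 5.94, all above every SD-101 array and 3 of 5 inside the saline range. The arrays with a-CD4 read 5.59, 5.12, 5.46 and 5.15, across the gap between the SD-101 and saline ranges. Per2 was thus lower by 0.88 ± 0.18 (SE of the fitted difference) in SD-101 than in saline, a 1.84-fold difference, and higher by 0.64 ± 0.18 in the PD-1 arm than in SD-101.

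Per1, the Period gene induced most directly by hormone and stimulus signals, had another order. Its saline arrays read 7.86, 6.83, 8.04, 8.03 and 8.06, with the second array 1.03 below the next. SD-101 arrays ran from 6.07 to 7.64 with a median of 7.09. With anti-PD-1 Per1 read 6.70, 7.04, 6.66, 6.46 and 6.37, the lowest group mean (6.65 ± 0.26, SD, n = 5), and with a-CD4 added it read 6.81, 6.69, 6.50 and 7.30. All 3 treated groups overlapped each other, and each overlapped saline only through its second array. Against saline the differences were -0.73 ± 0.27 in SD-101, -1.11 ± 0.28 in the PD-1 arm and -0.94 ± 0.30 in the a-CD4 arm. Per1 was the only member whose mean was lower in the PD-1 arm than in SD-101 (-0.39 ± 0.27), and this turned to 0.54 with the ciliated airway mean, described next to Per3, as a covariate.

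Immediate early genes, which cells switch on within minutes of a stimulus or of tissue handling, had a lower mean in each treated group than in saline, as Per1 did. Their mean over 9 genes was 10.71 ± 0.50 in saline, 10.29 ± 0.60 in SD-101, 9.23 ± 0.21 in the PD-1 arm and 9.20 ± 0.22 in the a-CD4 arm. All 9 fell in the PD-1 arm against saline, where 2.15% of all genes were called lower, among them Egr1 by 1.33 ± 0.19 (limma, adjusted p = 4.15e-04), Dusp1 by 1.31 ± 0.22 (limma, adjusted p = 0.00131) and Fos by 0.66 ± 0.12 (limma, adjusted p = 0.00271). With a-CD4, 8 of 9 fell against saline, where 3.03% of all genes were called lower. In SD-101 vs Saline-CTRL 0 of 9 were called, where 0.0351% of all genes were called lower. In the PD-1 arm against SD-101, where Per1 was not called, 7 of 9 fell, against 1.25% of all genes called lower. Of these calls, those of Fosb and of Jun were each lost in 8 of 11 fits without 1 array. The saline array of lowest Per1 also had the lowest immediate early mean of its group, 10.05, and the SD-101 array of lowest Per1 had the lowest of its own, 9.51. Both are among the 4 arrays that stood apart, and without those 4 the Per1 differences from saline were -0.69, -1.39 and -1.22 in SD-101, the PD-1 arm and the a-CD4 arm. With a-CD4 the array of lowest Per1 (6.50) also had the lowest immediate early mean of its group, 8.88. In the PD-1 arm the array of lowest Per1 (6.37) had the highest immediate early mean of its group, 9.44. The part of the immediate early genes in the Per1 values was not tested. Heat shock genes, 7 of 10 listed, averaged 9.63 ± 0.40 in saline, 9.95 ± 0.29 in SD-101, 9.40 ± 0.12 in the PD-1 arm and 9.55 ± 0.22 with a-CD4. Their only call was Hspa1b, which fell by 1.95 in the PD-1 arm against SD-101 (limma, adjusted p = 0.0246), where 1.25% of all genes were called lower. That call was lost in 5 of 11 fits without 1 array.

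Per3, the remaining Period gene, was the only member with its highest mean in the PD-1 arm. It read 6.66, 6.38, 6.69, 6.76 and 6.59 there, a tight cluster above every SD-101 array (4.47 to 5.77, median 5.36) and every array with a-CD4 (5.54, 5.57, 5.88 and 5.31). Its saline arrays spread widely, at 7.29, 6.66, 5.90, 5.45 and 5.24. Per3 was higher by 1.36 ± 0.29 in the PD-1 arm than in SD-101, a 2.56-fold difference. Against saline it was lower by 0.85 ± 0.29 in SD-101 and differed by 0.51 ± 0.30 in the PD-1 arm and by -0.53 ± 0.32 with a-CD4.

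Markers of ciliated airway cells, like Per3, had their highest mean in the PD-1 arm. Over 6 of 8 listed markers, such as Foxj1, the master regulator of motile cilia, the mean was 6.33 ± 0.39 (5.76 to 6.69) in the PD-1 arm, against 2.99 to 4.88 in saline, 3.39 to 5.20 in SD-101 and 3.59 to 4.96 with a-CD4. The marker group means in SD-101 (4.10) and with a-CD4 (4.37) lay above that of saline (3.79), whereas those of Per3 lay below it. All 6 rose in the PD-1 arm against saline and against SD-101, where 3.47% and 3.52% of all genes were called higher, and 4 of 6 fell when a-CD4 was added, against 1.18% of all genes called lower. The 2 saline arrays with the highest Per3, numbers 1 and 2, also had the highest ciliated means of their group, 4.60 and 4.88, while the 2 such SD-101 arrays (4.98 and 5.20) had Per3 at 5.25 and 5.47. With the ciliated mean as a covariate, chosen after the data were seen, the Per3 difference of the PD-1 arm from saline turned to -0.53 and that from SD-101 shrank to 0.45. With those 4 arrays left out the same differences were 1.09 and 1.41, and that of the a-CD4 arm from saline turned to 0.05. In bulk RNA, more cells of a type and more RNA per cell cannot be told apart.

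**Figure D1:**
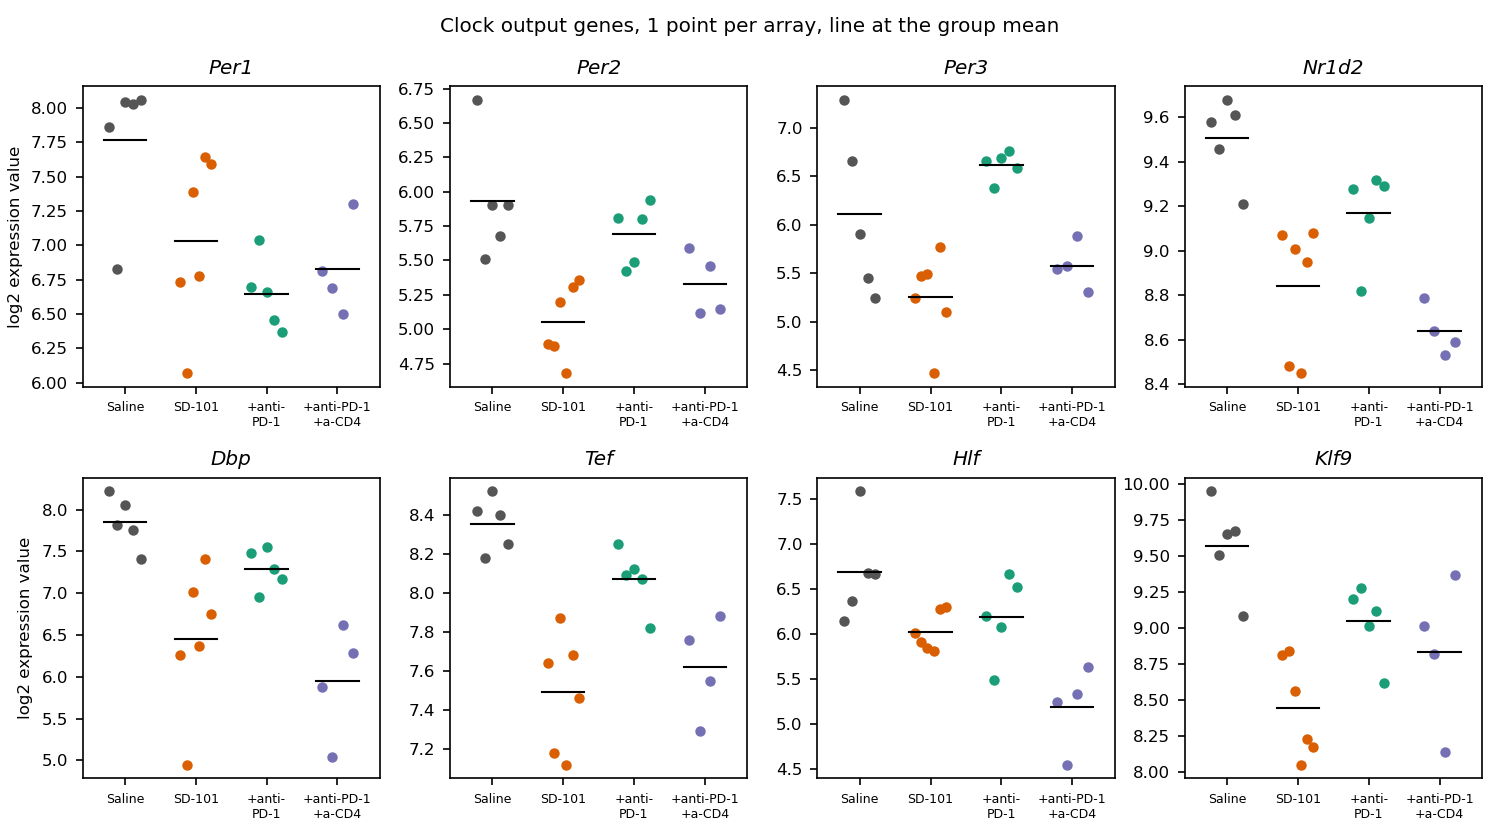
Log2 expression value (vertical axes) of the 8 measured clock output genes in each array, grouped along the horizontal axes as saline, SD-101, the PD-1 arm and the a-CD4 arm; points are arrays and lines are group means. Saline has the highest mean for 7 genes, and Per3 is highest in the PD-1 arm, at 6.38 to 6.76.

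The PAR bZIP genes Dbp, Tef and Hlf relay the clock to metabolism and detoxification in many tissues. Dbp read 8.22, 7.82, 8.06, 7.76 and 7.41 in saline. SD-101 arrays ran from 4.95 to 7.41 with a median of 6.56, and at 2 decimals its highest array equals the lowest saline array. With anti-PD-1 Dbp read 7.48, 6.96, 7.55, 7.29 and 7.17, and with a-CD4 it read 5.88, 5.04, 6.62 and 6.28, below every array of saline and of the PD-1 arm. Dbp was lower than in saline by 1.40 ± 0.34 in SD-101 (2.63-fold), by 0.57 ± 0.35 in the PD-1 arm and by 1.90 ± 0.37 in the a-CD4 arm (3.74-fold).

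Tef followed the same order for its upper groups, with little spread in saline. It read 8.42, 8.18, 8.52, 8.40 and 8.25 in saline and 7.12 to 7.87 in SD-101, median 7.55. With anti-PD-1 it read 8.25, 8.09, 8.12, 8.07 and 7.82, so 4 of 5 arrays lay above every SD-101 array and 4 of 5 below every saline array. With a-CD4 it read 7.76, 7.29, 7.55 and 7.88, below every saline array and across the SD-101 range. Against saline, Tef was lower by 0.86 ± 0.13 in SD-101, by 0.29 ± 0.14 in the PD-1 arm and by 0.73 ± 0.15 in the a-CD4 arm.

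Hlf was lowest with a-CD4. It read 6.15, 6.37, 7.59, 6.68 and 6.67 in saline, where replicate 3 stood highest, and 5.81 to 6.30 in SD-101, median 5.96. With anti-PD-1 it read 6.20, 5.49, 6.08, 6.67 and 6.52, across the SD-101 range. With a-CD4 it read 5.25, 4.55, 5.33 and 5.64, below every saline and every SD-101 array. The difference from saline was -0.67 ± 0.24 in SD-101, -0.50 ± 0.26 in the PD-1 arm and -1.50 ± 0.27 in the a-CD4 arm, the last a 2.83-fold difference.

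Nr1d2 encodes REV-ERB beta, a heme-binding nuclear receptor that represses transcription. It read 9.58, 9.46, 9.68, 9.61 and 9.21 in saline and 8.45 to 9.08 in SD-101, median 8.98. With anti-PD-1 it read 9.28, 8.82, 9.15, 9.32 and 9.29, a range that overlapped both of those groups. With a-CD4 it read 8.79, 8.64, 8.53 and 8.59, below every saline array and every PD-1 arm array. Nr1d2 was lower than in saline by 0.67 ± 0.13 in SD-101, by 0.34 ± 0.14 in the PD-1 arm and by 0.87 ± 0.15 with a-CD4.

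Klf9 encodes a zinc finger factor that responds to glucocorticoid and thyroid hormones and follows the clock. It read 9.95, 9.51, 9.65, 9.67 and 9.08 in saline, all above the SD-101 arrays (8.05 to 8.84, median 8.40). With anti-PD-1 it read 9.20, 9.28, 9.01, 9.12 and 8.62. With a-CD4 its 4 arrays spread from 8.14 to 9.37, the others being 9.01 and 8.82, so this group overlapped all 3 others. Klf9 was lower than in saline by 1.13 ± 0.21 in SD-101 (2.19-fold), by 0.53 ± 0.22 in the PD-1 arm and by 0.74 ± 0.23 with a-CD4.

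The order of group means was shared by most members. Saline-CTRL was highest for 7 of 8 and the PD-1 arm second for 6 of 8. SD-101 was lowest for Per2, Per3, Tef and Klf9, the a-CD4 arm for Dbp, Hlf and Nr1d2, and the PD-1 arm for Per1. Neighbours in that order overlapped in 23 of 24 cases, the exception being Hlf, whose SD-101 arrays all lay above those with a-CD4, as 1.72% of all genes did. The mean of the 8 genes, each taken relative to its own mean over all arrays, ran from 0.31 to 0.86 in saline, 0.02 to 0.28 in the PD-1 arm, below 0 in every SD-101 array and -0.70 to -0.22 with a-CD4. On this mean the first 3 ranges did not overlap, and the last overlapped that of SD-101.

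Counts over the list are given beside the share of all genes, and nothing is read from them where the list was chosen on those arrays. In SD-101 vs Saline-CTRL all 8 differences were negative, with a median of -0.86 against 0.01 over all genes. Tef, Per2, Nr1d2 and Klf9 (4 of 8) were called lower, where a call is a Benjamini-Hochberg adjusted p under 0.05 over all genes, against 0.0351% of all genes called lower. Ranges did not overlap for 5 of 8, the same 4 and Dbp, against 0.228% of all genes. Leaving out 1 array kept the call of Tef in 11 of 11 fits, and the count of calls dropped to 1 without Saline-CTRL replicate 1, 3 or 4 or SD-101 replicate 4 or 5, and to 2 without SD-101 replicate 2 or 3. In the fits that left 1 member called, 1 or 2 of all genes were called lower, against 6 in the main fit. In the fits that left 2 members called, 4 and 3 of all genes were. Scaling by array medians gave 2 calls, with 7 of all genes called lower. A fit of only these 2 groups gave 0, with 0 of all genes called lower, so nothing is read from that count. In that fit the spread is estimated from fewer arrays. Without the 4 arrays that stood apart 2 members, Tef and Klf9, were called, and 54 of all genes were called lower.

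In the PD-1 arm against saline 7 of 8 differences were negative, with a median of -0.42 against 0.03. Per1 alone was called lower, 1 of 8 against 2.15% of all genes, and lost that call without Saline-CTRL replicate 3, 4 or 5 or PD-1 arm replicate 1, 3 or 4. Without the 4 arrays that stood apart 2 members were called, Per1 lower and Per3 higher, while calls over all genes went from 962 to 2228. Ranges overlapped for all 8 members, while 2.32% of all genes lay lower without overlap.

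In the a-CD4 arm against saline all 8 were negative, with a median of -0.80 against 0.04. Tef, Dbp, Hlf and Nr1d2 were called lower, 4 of 8 against 3.03% of all genes, and all 4 kept their calls in 9 of 9 fits without 1 array. The same 4 had ranges below saline without overlap, against 3.32% of all genes. Markers of endothelial cells, which line blood vessels, also differed here. Their mean over 12 genes was 8.28 to 10.11 in saline, 7.45 to 9.56 in SD-101, 5.81 to 6.90 in the PD-1 arm and 6.89 to 8.19 with a-CD4, and 11 of 12 were called lower with a-CD4 than in saline. With that mean as a covariate 0 of 8 members were called in this comparison, in the PD-1 arm against saline and in the PD-1 arm against SD-101. Calls over all 17097 genes went from 1218 to 22, from 962 to 0 and from 816 to 1 in the same fits, so nothing is read from the members' count. The members' median differences with the covariate were -0.91, -0.35 and 0.44, and their signs stayed as they were except for Per3 in the PD-1 arm against saline (-0.07). In SD-101 vs Saline-CTRL, where 0 of 12 endothelial markers were called, the covariate left 1 member called. Over all genes the number called lower there went from 6 to 2. Means of B and plasma cell markers did not overlap in that comparison, at 5.04 to 5.76 in saline and 5.92 to 7.11 in SD-101. Of these markers 1 of 6 was called higher, as was 1 of 4 natural killer cell markers, against 0.298% of all genes. Macrophage markers had a median difference of 0.88 with 0 of 9 called. The part of these cells in the members' values was not tested. T cell identity genes, such as Cd3e and Cd8a, averaged 8.50 to 10.45 over all arrays, and 0 of 9 were called in any of the 6 comparisons. From 57 to 1218 of all genes were called in these, so nothing is read from the 0 of 9. With a-CD4 this mean was 8.50 in replicate 2 and 10.17 to 10.45 in the other arrays. Replicate 2 also had the lowest Dbp (5.04), Hlf (4.55), Tef (7.29) and Per2 (5.12) of its group, but not the lowest Per1, Per3, Nr1d2 or Klf9.

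**Figure D2:**
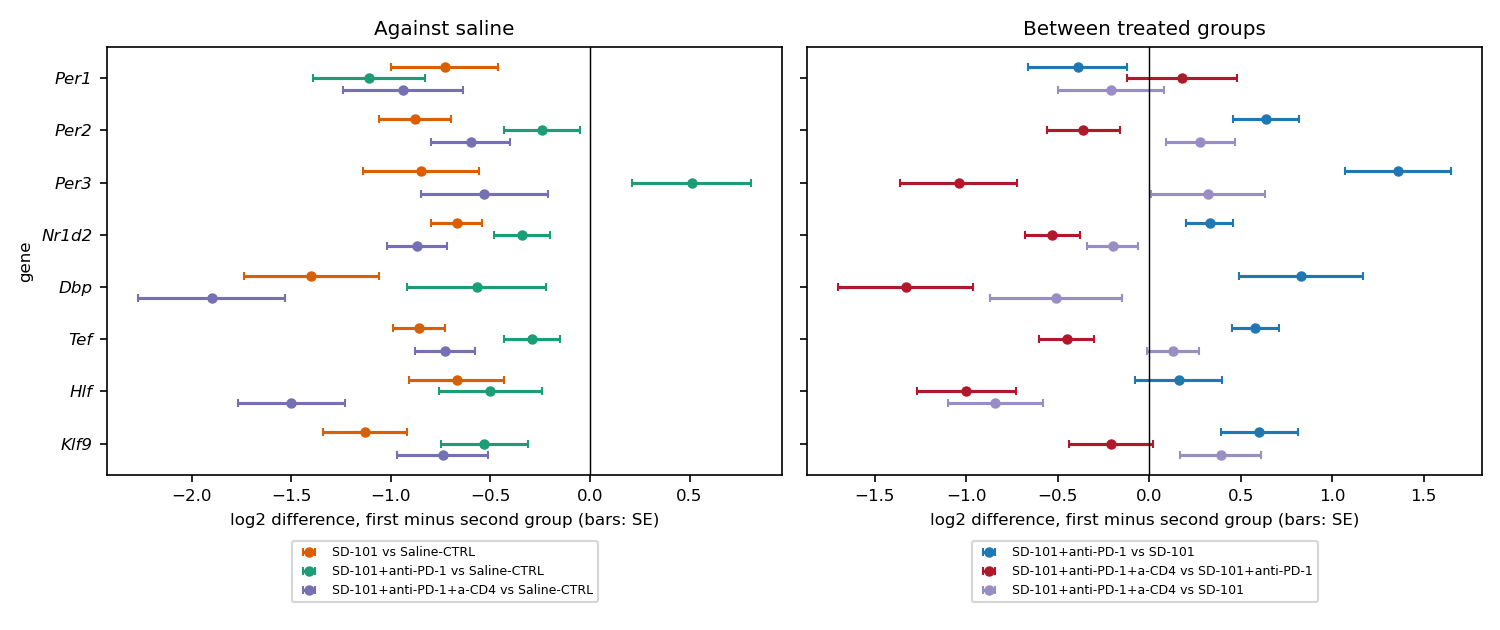
Log2 difference between group means (horizontal axis, first minus second group, bars are standard errors) for each of the 8 genes (vertical axis), against saline on the left and between treated groups on the right. All 8 points of SD-101 vs Saline-CTRL lie below 0, with a median of -0.86, and 7 of 8 lie above 0 in the PD-1 arm against SD-101.

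Between treated groups, 7 of 8 members were higher in the PD-1 arm than in SD-101, with a median of 0.59 against 0.01 over all genes. Per2, Per3 and Tef were called higher, 3 of 8 against 3.52% of all genes, and Per2 and Per3 did not overlap, against 4.09%. Per3 kept its call in 11 of 11 fits without 1 array, while the count dropped to 1 without SD-101 replicate 4 or PD-1 arm replicate 1, 3 or 4, and was 5 without the 4 arrays that stood apart, Per1 lower and Per2, Per3, Tef and Klf9 higher. Calls over all genes, 816 in the main fit, were 317 to 422 where the count dropped to 1. They were 1814 without the 4 arrays that stood apart. Against SD-101, the group with a-CD4 had 4 members lower and 4 higher, with 0 of 8 called by limma, 1 of 8 at an unadjusted p under 0.05 (2846 of 17097 genes), and 0.983% of all genes called.

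The comparison of the a-CD4 arm with the PD-1 arm shares no array with the comparison that prompted the list, and its adjusted p-values are given. Its spread was still estimated from all 20 arrays, and the members were chosen with earlier results of these data known. Members were lower with a-CD4 in 7 of 8 cases, with a median of -0.49 against 0.00 over all genes, and 0 of 8 passed the test, with 2.13% of all genes called. At an unadjusted p under 0.05 there were 5 of 8, against 3060 of 17097 genes. Hlf differed by -1.0 ± 0.27 (limma, adjusted p = 0.0605), Nr1d2 by -0.53 ± 0.15 (limma, adjusted p = 0.0655) and Dbp by -1.33 ± 0.37, a 2.52-fold difference (limma, adjusted p = 0.0676). Per3 differed by -1.04 ± 0.32 (limma, adjusted p = 0.0958) and Tef by -0.45 ± 0.15 (limma, adjusted p = 0.116). All 4 arrays with a-CD4 lay below all 5 without it for Per3, Dbp and Nr1d2, against 4.53% of all genes. Per2 (-0.36 ± 0.20), Klf9 (-0.21 ± 0.23) and Per1 (0.18 ± 0.30) had adjusted p-values of 0.368, 0.710 and 0.829 by limma. The count was sensitive to single arrays: without PD-1 arm replicate 2, Hlf and Nr1d2 were called, and without a-CD4 arm replicate 3, Dbp. It was 1 with the mean of all probe sets, 2 with only these 2 groups fitted, 3 with the T cell identity mean as a covariate and 4 without the 4 saline and SD-101 arrays of high ciliated mean. Calls over all genes in these 4 fits were 350, 341, 889 and 861, against 364 in the main fit. Ciliated markers moved here too, with 4 of 6 called lower and all 6 without overlap, and with their mean as a covariate Per1 turned to -0.63 and Klf9 to 0.14.

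Other probe sets of the same genes gave a further reading. Of 20 probe sets, 12 were not used above, and 7 of these had a mean of at least 4. In each of the 3 comparisons with saline those 7 had the sign of the probe set used, as they did in the PD-1 arm against SD-101. In both remaining comparisons 6 of 7 did. The second probe sets of Tef (-1.03) and Hlf (-0.70) and the second of Klf9 (-1.21) had differences in SD-101 vs Saline-CTRL of the size of the first. For Per3, the second probe set gave 0.96 in the PD-1 arm against SD-101 and 0.06 against saline.

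Members also varied together among arrays of 1 group. After group means were subtracted, 23 of 28 pairs of members correlated above 0 over the 20 arrays, with a median of 0.32 and a range from -0.24 (Per1 and Per3) to 0.64 (Tef and Dbp). The points share arrays and their scaling, and pairs of other genes were not counted, so no share stands beside these. On another measure, the correlation of each other gene with the member mean after the same subtraction, the median was -0.01. Tef (0.78), Nr1d2 (0.66), Dbp (0.61) and Per2 (0.57) followed the mean of the other members most closely within groups, and Klf9 (0.04), Per3 (0.21) and Hlf (0.23) least.

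Genes outside the list whose values over all 20 arrays were most like the member mean were, by Pearson correlation, Sh3rf2 (0.80), Slc25a36 (0.79), Bambi (0.79), Kbtbd7 (0.77), Abca5 (0.77), Cytl1 (0.76), Nrp1 (0.75), Ctsf (0.73), Mvb12b (0.72) and Hopx (0.72). Hopx is 1 of the alveolar epithelial markers. Their mean was 11.21 in saline, 10.95 in SD-101, 11.82 in the PD-1 arm and 11.08 with a-CD4. That of airway secretory cell markers was 7.95, 7.48, 9.07 and 6.94 in the same order. Both were thus higher in the PD-1 arm than in SD-101, as most members were, and their part in the members' values was not tested. Bambi, which encodes a decoy receptor of TGF-beta signalling, averaged 7.25 ± 0.45 in saline, 6.35 ± 0.40 in SD-101, 6.83 ± 0.33 in the PD-1 arm and 5.61 ± 0.78 with a-CD4. Nrp1, a coreceptor for semaphorin and VEGF, averaged 9.76 ± 0.38, 9.01 ± 0.34, 9.21 ± 0.25 and 8.45 ± 0.41 in the same order. After group means were subtracted, the most alike were Dcaf8 (0.76), Orm3 (0.75), Piezo2 (0.75), Fbxo15 (0.74), Itln1 (0.74), Acot12 (0.70), Dsc3 (0.70), Acp7 (0.69), Sv2b (0.69) and Cmtm5 (0.67). All of these but Dcaf8 had means of 2.54 to 3.40 over all arrays, below the array medians of 3.52 to 3.75.

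The other arm of the clock was examined through 6 of 7 listed genes that peak when the members are low or that drive them: Arntl, Clock, Npas2, Nfil3, Cry1 and Rora. Cry1, a Cryptochrome repressor that peaks late, was the only call among them in the 6 comparisons. It averaged 6.14 ± 0.25 (SD, n = 5) in saline and 6.65 ± 0.18 (SD, n = 4) with a-CD4 and rose by 0.50 ± 0.12 (limma, adjusted p = 0.0130), in a comparison with 4.09% of all genes called higher. It kept that call in 9 of 9 fits without 1 array and lost it when arrays were centred on their medians (limma, adjusted p = 0.204). Arntl, the gene that the REV-ERB proteins repress, averaged 6.04 ± 0.67 in saline, 6.29 ± 0.18 in SD-101, 6.15 ± 0.14 in the PD-1 arm and 6.33 ± 0.41 with a-CD4, and Clock ran from 6.52 to 6.68 among group means. Within saline, Arntl was lowest (5.08) in replicate 1, where the member mean was highest (0.86). It was highest (6.94) in replicate 5, where the member mean was lowest (0.31). In SD-101 vs Saline-CTRL, 0 of these 6 genes were called by limma, 0 had an unadjusted p under 0.05, and their median difference was 0.01. Of all 17097 genes only 57 were called there and 1414 had an unadjusted p under 0.05, so nothing is read from these counts. Nfil3, a repressor that competes for D-boxes, averaged 7.04 ± 0.53, 6.54 ± 0.82, 5.97 ± 0.69 and 7.09 ± 0.56 in the order saline, SD-101, the PD-1 arm and with a-CD4, and was not called.

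Among 9 of 10 other clock repressors and regulators, Timeless, whose product acts in DNA replication, fell by 0.66 ± 0.15 in the PD-1 arm against SD-101 (limma, adjusted p = 0.0148), where 1.25% of all genes were called lower, a call lost without PD-1 arm replicate 1 (limma, adjusted p = 0.0537). Cry2, the second Cryptochrome, averaged 5.30 ± 0.33, 4.93 ± 0.29, 5.46 ± 0.33 and 4.75 ± 0.25 in the same order of groups, and differed by -0.71 ± 0.20 when a-CD4 was added (limma, adjusted p = 0.0665). Ciart, another repressor of CLOCK and BMAL1, had a different order, at 5.50 ± 0.76, 5.13 ± 0.61, 4.37 ± 0.30 and 4.99 ± 0.77, and its largest difference, -1.13 ± 0.37 in the PD-1 arm from saline, was not called (limma, adjusted p = 0.0869). Of 8 other rhythmic outputs 6 were measured and 0 were called by limma in any comparison, with 1 or 2 of 6 at an unadjusted p under 0.05 in each, where 1414 to 3560 of 17097 genes had one. Among them Usp2, a deubiquitinase, differed by 0.67 ± 0.20 in the PD-1 arm from SD-101 (limma, adjusted p = 0.0578).

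**Figure D3:**
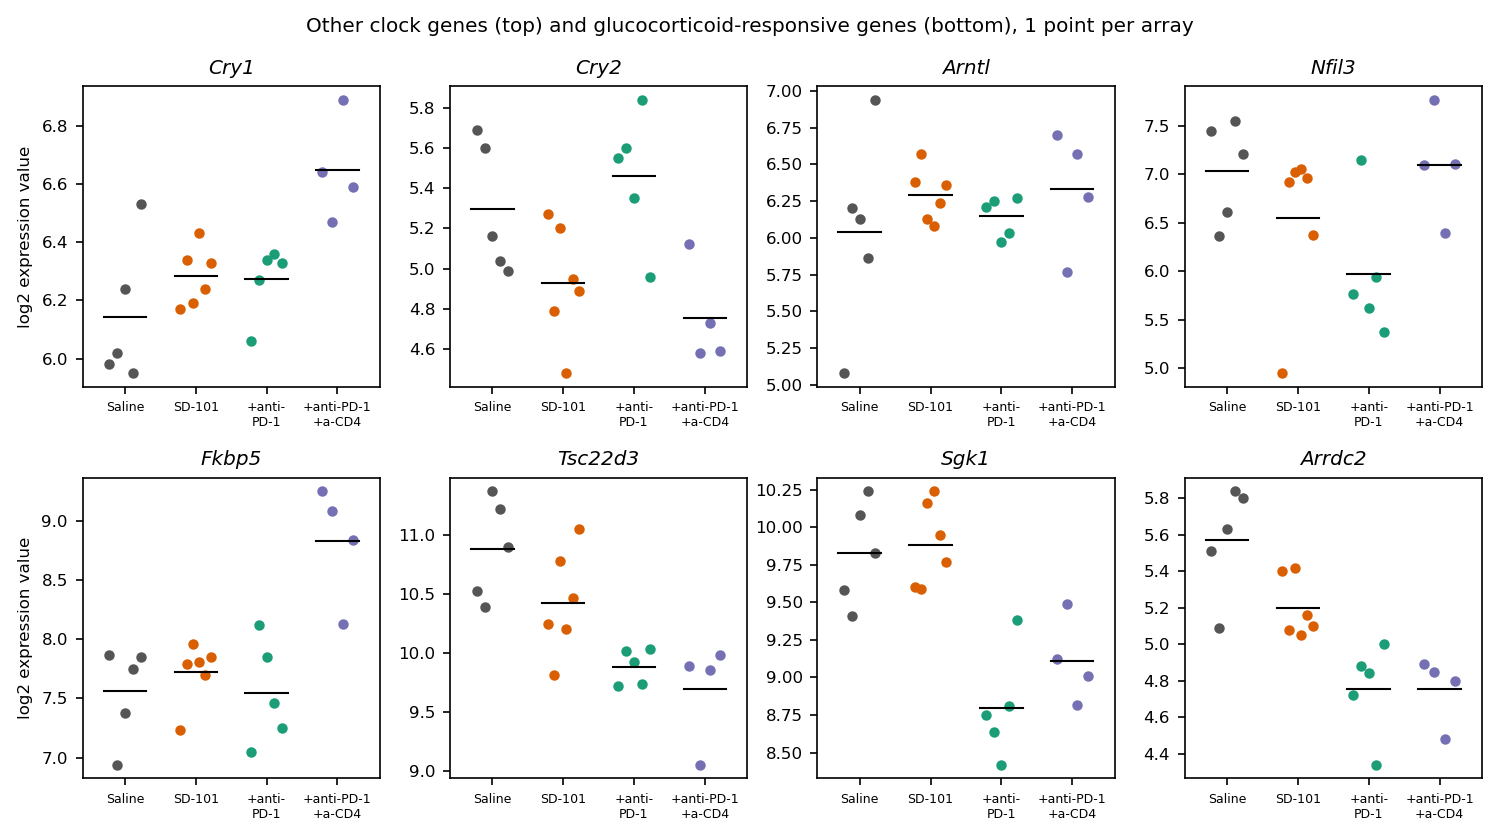
Log2 expression value (vertical axes) per array of 4 other clock genes (Cry1, Cry2, Arntl and Nfil3, top) and 4 glucocorticoid-responsive genes (Fkbp5, Tsc22d3, Sgk1 and Arrdc2, bottom), in the 4 groups along the horizontal axes; lines are group means. Cry1 and Fkbp5 have their highest means with a-CD4, at 6.65 and 8.83, and Tsc22d3 has its lowest there, at 9.69.

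Genes induced by glucocorticoids were read beside Per1 and Klf9, which share that input. Of 10 listed, 9 were measured, and they moved in different directions. In SD-101 vs Saline-CTRL 0 of 9 were called by limma, and 2 had an unadjusted p under 0.05. Of all 17097 genes 57 were called there and 1414 had an unadjusted p under 0.05. Tsc22d3, which encodes the glucocorticoid-induced leucine zipper, fell against saline by 1.0 ± 0.23 in the PD-1 arm (limma, adjusted p = 0.0137), a call lost without Saline-CTRL replicate 3 (limma, adjusted p = 0.0508). Sgk1, a kinase of ion transport and T cell differentiation, fell there by 1.03 ± 0.19 (limma, adjusted p = 0.00291) and Arrdc2, an arrestin-domain gene, by 0.82 ± 0.15 (limma, adjusted p = 0.00185). These were 3 of 9 called lower, against 2.15% of all genes. In the PD-1 arm against SD-101 Sgk1 alone was called and fell by 1.08 (limma, adjusted p = 0.00264), where 1.25% of all genes were called lower.

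Fkbp5, a cochaperone that damps the glucocorticoid receptor, went the other way when a-CD4 was added. It averaged 7.56 ± 0.40 in saline, 7.72 ± 0.26 in SD-101, 7.55 ± 0.44 in the PD-1 arm and 8.83 ± 0.49 with a-CD4. Every array with a-CD4 lay above every other array. Fkbp5 rose by 1.28 ± 0.25 against the PD-1 arm (limma, adjusted p = 0.0148), a call lost without a-CD4 arm replicate 1 or 2 (limma, adjusted p up to 0.0626). It rose against SD-101 as well (limma, adjusted p = 0.0362), a call lost in 7 of 10 fits without 1 array. Of all genes 0.948% and 0.573% were called higher in these 2 comparisons. Against saline, Fkbp5 rose by 1.27 ± 0.25 while Tsc22d3, Arrdc2 and Sgk1 fell with a-CD4, and the Sgk1 call was lost in 6 of 9 fits without 1 array (limma, adjusted p up to 0.108 without a-CD4 arm replicate 3). In that comparison 4.09% of all genes were called higher and 3.03% lower.

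**Figure D4:**
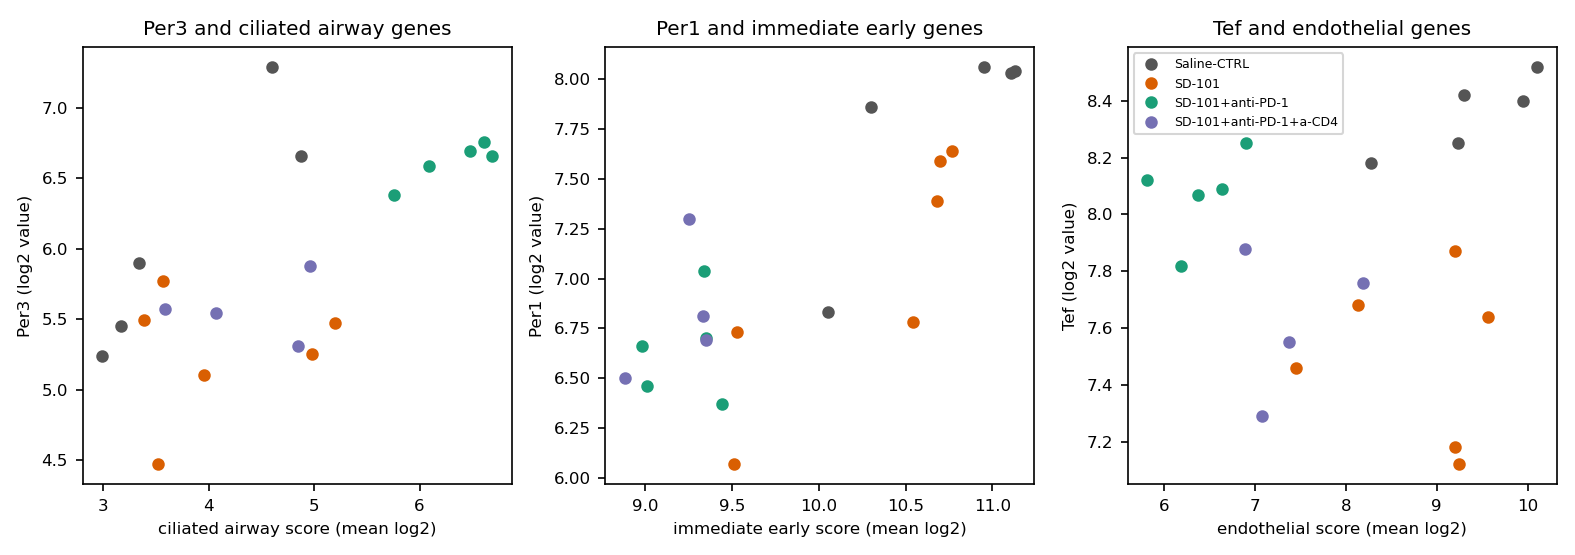
Each point is 1 array, coloured by group: Per3 against the mean of 6 ciliated airway markers (left), Per1 against the mean of 9 immediate early genes (middle) and Tef against the mean of 12 endothelial markers (right), all in log2 values. PD-1 arm arrays lie at ciliated means of 5.76 to 6.69 with Per3 at 6.38 to 6.76, and at endothelial means of 5.81 to 6.90 with Tef at 7.82 to 8.25.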

How the data were processed

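Expression was measured on Affymetrix arrays in 20 samples of 4 groups taken from the labels. The authors deposited log2 values per probe set, and per the submitters' processing notes affy, RMA, limma and the genome build mm8 were used, with no versions or roles given. Values ran from 1.78 to 13.44. They hold no read depth, so the number of arrays limits precision. Of 45141 probe sets, 28898 were listed with 1 symbol, giving 17097 genes with no filter on level. Arrays correlated at 0.9212 to 0.9939 with each other.

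The deposited log2 values were fitted in R 4.3.3 with limma 3.58.1, 1 mean per group and no other term, all 20 arrays sharing 1 estimate of spread. The 6 comparisons used 2-sided moderated tests with Benjamini-Hochberg adjustment over all genes and a threshold of 0.05. The fit was tested on simulated data. "Rose" and "fell" are used of genes that passed. The members and the lists were chosen with earlier results of these data known. Named genes were the members and up to 4 called genes of each other clock or response list per comparison, though not every such gene. The 10 genes most like the member mean by each of 2 measures, without predicted genes, are named too. Cry2, Ciart, Usp2, Nfil3, Arntl and Clock are named as well, chosen after their values were seen. Marker means are means of log2 values over a list.

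Replicate numbers were not taken to pair the samples, since deviations of same-numbered arrays correlated at -0.39 to 0.51 over 27 pairs, although arrays 1 and 2 stood apart alike in Saline-CTRL and SD-101. Alternatives changed the probe set rule, scaling, filter, variance model, groups fitted, block, covariates and arrays. The ciliated covariate and 2 sets of left-out arrays (the 2 of lowest T cell identity mean, and the 4 of saline and SD-101 with a high ciliated mean) were chosen after seeing the data.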

Additional observations from a re-analysis of the deposited data

Results flagged for a closer look

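Per1 in Saline-CTRL replicate 2 read 6.83, which was 1.03 below the next of the 5 saline arrays in a group range of 1.23. The gap was 0.84 of the range, above the critical share of 0.71. Of 36 groups tested 1 stood out this way, and chance flags about 1 in 20.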

How the results depend on the processing

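Signs of the 8 members' differences did not change under either scaling, though centring moved the median over all genes to -0.11 in the PD-1 arm against saline and against SD-101. The number of members called in SD-101 vs Saline-CTRL (4) was 2 with arrays centred on their medians, 0 with only the 2 groups, 1 with the endothelial or heat shock covariate, 1 without the 2 arrays of lowest T cell identity mean and 2 without 4 arrays of high ciliated mean. Over all genes 6 were called lower in the main fit, and 7, 0, 2, 5, 4 and 54 in these fits, in that order. In the PD-1 arm against saline (1) it was 2 with centring, 0 with the endothelial, heat shock or ciliated covariate and 2 without the 4 arrays. In the a-CD4 arm against saline (4) it was 0 with the endothelial covariate. In the PD-1 arm against SD-101 (3) it was 1 with centring, 0 with each of those 3 covariates and 5 without the 4 arrays. Those 3 covariates gave 1, 19 and 3 calls over all genes in that comparison, against 816, and 0, 665 and 34, against 962, in the PD-1 arm against saline. Centring gave 676 and 880 calls over all genes in these 2 comparisons, and leaving out the 4 arrays gave 1814 and 2228. In the a-CD4 arm against the PD-1 arm (0) it was 1 with the mean of probe sets, 2 with only the 2 groups, 3 with the T cell identity covariate and 4 without the 4 arrays. Over all genes these fits gave 350, 341, 889 and 861 calls, against 364. Opposite-phase calls with a-CD4 against saline (1) were 0 with centring, only 2 groups, the endothelial covariate or the 4 arrays left out, and with the T cell identity covariate 1 was called with a-CD4 against each of the PD-1 arm and SD-101 (0 before). Median differences moved by less than the spread under every alternative run. The cause of each change was not tested, except that fewer arrays enter where arrays or groups are left out.

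Leaving out 1 array gave 1 to 4, 0 to 1, 4 to 6, 1 to 3, 0 to 2 and 0 to 0 members called in SD-101, the PD-1 arm and the a-CD4 arm vs Saline-CTRL, the PD-1 arm vs SD-101, the a-CD4 arm vs the PD-1 arm and vs SD-101. Medians in that order were -0.93 to -0.74, -0.46 to -0.29, -0.89 to -0.77, 0.51 to 0.64, -0.54 to -0.44 and -0.11 to 0.04.

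With the ciliated covariate, Atf3 in the PD-1 arm against saline turned to 0.68, and in the PD-1 arm against SD-101 Fosb turned to 0.33, Jun to 0.09, Ier2 to 0.00 and Dusp1 to 0.05. Each of these genes was called lower in the main fit of that comparison. When a-CD4 was added to the PD-1 arm, Per1 turned to -0.63 and Klf9 to 0.14 with that covariate, while without 1 array Klf9 ran from -0.39 to 0.02, the latter without a-CD4 arm replicate 3.

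With the replicate block, counts over all genes went from 57, 962, 1218, 816, 364 and 168 to 42, 1075, 1268, 751, 242 and 250 in SD-101, the PD-1 arm and the a-CD4 arm vs Saline-CTRL, the PD-1 arm vs SD-101, and the a-CD4 arm vs the PD-1 arm and vs SD-101, and no count of members called moved by more than 1.5 times.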
